A study of Rattus norvegicus with 8 samples.

Results

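The genes described are those of the Wnt ligands, their receptors, their secreted antagonists and agonists, and a few pathway readouts in rat vessels. Membership went by symbol, and the set was picked with earlier results of these data known. The set takes every rat gene named Wnt, Fzd, Sfrp or Dkk with a number, together with Lrp5, Lrp6, Frzb, Wif1, Sost, Rspo1 to Rspo4, Axin2, Lef1 and Tcf7. The gene table holds 49 such genes, 45 of them with a matched array probe (62 of 45598 probes), out of 16678 named genes with a probe. Total RNA from vessels of 4 male hypertensive disease model rats and 4 male control rats was hybridised to 1-colour Agilent arrays, 1 array per rat. The series title names the controls as Wistar-Kyoto rats, a normotensive strain. The labels enter Wistar-Kyoto for the hypertensive rats too, and which strain these were is therefore uncertain. Age, the vessel taken and the hypertension model are not given in the sources used here.

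Wnt proteins are secreted, lipid-modified ligands that bind Frizzled (Fzd) receptors. With the co-receptors Lrp5 and Lrp6 they stop the breakdown of beta-catenin, which then enters the nucleus and works with TCF/LEF factors such as Lef1 and Tcf7. Other Wnts act through Frizzled and Ror receptors without beta-catenin. Secreted Frizzled-related proteins (Sfrp, Frzb) and Wif1 hold back the ligands. Sclerostin (Sost) and Dickkopf (Dkk) proteins such as Dkk1 block the co-receptors, and R-spondins (Rspo) keep Frizzled receptors on the cell surface. In the vessel wall the pathway is known for roles in endothelial growth, smooth muscle proliferation and calcification.

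Levels below are log2 signal minus the 75th percentile of the array, so a level belongs to 1 probe and is not compared between genes. Changes are hypertensive minus control, with ± the standard error of the limma fit, and a change counts as past the threshold at an adjusted p under 0.05 over all 24552 tests. Over all tests 641 were higher and 470 lower in hypertensive vessels, 4.53% in all (2.61% higher and 1.91% lower), and the higher share of the calls, 57.7%, became 47.4% with quantile normalization and 39.3% with median centring. Arrays correlated at 0.987 to 0.992 within the hypertensive group, 0.993 to 0.994 within the control group and 0.983 to 0.987 between the groups. All 8 arrays lay on 1 slide, with hypertensive samples in slide row 2 and controls in slide row 1, so the slide row and the group cannot be told apart. The vessel label was checked against contractile smooth muscle markers, all 10 of which were tested. Their mean level was 4.39 to 4.997 in hypertensive and 4.31 to 4.69 in control arrays. Of the 10, 7 had a positive and 3 a negative change, and 1 was past the threshold, lower in hypertensive vessels.

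Hypertensive vessels had more signal for 3 genes grouped by symbol as secreted Wnt antagonists, Dkk3, Sfrp5 and Frzb, by 1.53-fold to 1.89-fold. Of these, Dkk3 is not an established blocker of Lrp5 and Lrp6. No ligand, receptor, R-spondin or readout gene passed the threshold in either direction. Of the 45 genes with a probe, 35 were bright enough to be tested, and 3 of these (8.57%) rose and none fell. At an unadjusted p under 0.05 were 8 of the 35, beside 4975 of all 24552 tests, so such a p was common. The other 32 were not past the threshold. The median change of the 35 was -0.01, against 0.04 over all tests, with 16 positive and 19 negative. In 5 of the 35 (14.3%) the groups were free of overlap, a share close to the 13.6% of all tests. The members with the smallest p among those that missed the threshold were Wnt9b and Wnt4, with lower signal, and Wnt2b and Rspo2, with higher signal. Since vessel tissue was measured in bulk, fewer cells of a type and less RNA per cell cannot be told apart.

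**Figure D1:**
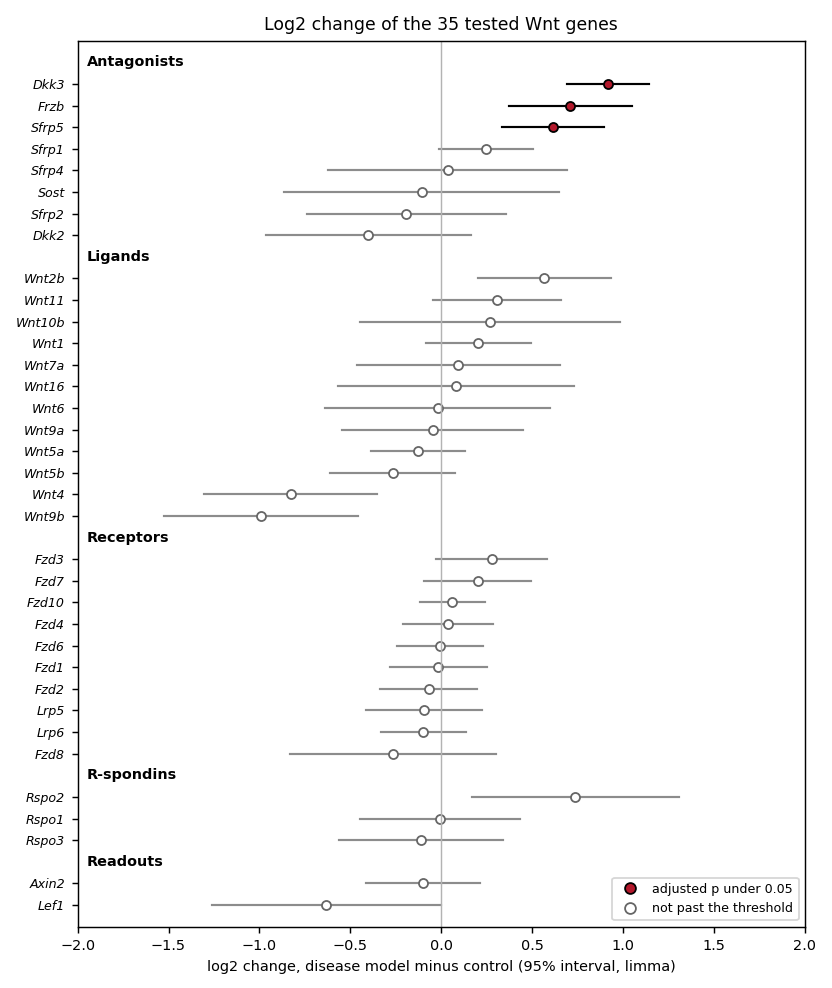
Log2 change (hypertensive disease model minus control, x axis) of the 35 tested genes, grouped by role, with points for the limma estimate, bars for its 95% interval and filled points for an adjusted p under 0.05. The 3 filled points, all in the group of genes classed by symbol as antagonists, are Dkk3 (0.92), Frzb (0.71) and Sfrp5 (0.61). The ligands run from -0.99 (Wnt9b) to 0.57 (Wnt2b) and the receptors from -0.27 (Fzd8) to 0.28 (Fzd3).

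Of the 11 genes grouped as antagonists by symbol, Dkk3 among them, 10 had a probe and 8 were tested. Of those 8, 3 rose (37.5%, against 2.61% of all tests), none fell and 5 were not past the threshold, with a median change of 0.14. Because these genes were picked with earlier results known, the share is a description and carries no test of its own.

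Dkk3 encodes a divergent Dickkopf protein that, unlike Dkk1, is not an established blocker of Lrp5 and Lrp6 and is known to be made in the vessel wall of mice and humans. Its level was 1.21, 0.92, 0.94 and 0.88 in hypertensive replicates 1 to 4, against 0.19, 0.05, -0.05 and 0.09 in control replicates 1 to 4. Every hypertensive array lay above every control array by more than the spread within either group. The change was 0.92 ± 0.10 (1.89-fold, adjusted p = 0.0013). Both other Dkk3 probes that were bright enough went the same way. One gave -3.33, -3.35, -3.38 and -3.89 in hypertensive arrays, against -4.74, -4.49, -4.79 and -4.24 in control arrays, a change of 1.08 ± 0.17 (adjusted p = 0.0081 in a fit of all kept probes). The other changed by 1.098 ± 0.27, with 4 hypertensive and 2 of 4 control arrays above background, and missed the threshold (adjusted p = 0.062). The call on the brightest probe was kept without any 1 of the 8 arrays, with adjusted p up to 0.0063.

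Sfrp5, a secreted Frizzled-related protein known in mice as a product of fat cells, was dim on these arrays. It read -2.71, -2.91, -2.86 and -2.95 in hypertensive replicates 1 to 4, against -3.64, -3.13, -3.59 and -3.53 in controls. The groups did not overlap, and control replicate 2 came nearest to the hypertensive arrays. The change was 0.61 ± 0.12 (1.53-fold, adjusted p = 0.028) on the single probe of the gene, and 0.36 with normexp background correction (adjusted p = 0.024). Of 11 tested fat cell markers 9 were positive, with a median change of 0.29 and none past the threshold. Their mean level was 1.59 in hypertensive replicate 4, the array with the lowest Sfrp5 of its group, where hypertensive replicates 1 to 3 had -0.83 to -0.15 and controls -0.57 to 0.18. Without hypertensive replicate 4 the Sfrp5 change was 0.64 (adjusted p = 0.035), and the part of fat cells in it was not tested.

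Frzb, another secreted Frizzled-related protein, first known from cartilage, was measured at 1.34, 1.61, 1.28 and 1.40 in hypertensive arrays, against 0.70, 0.34, 1.05 and 0.71 in control arrays. The lowest hypertensive array stood above the highest control array, which was control replicate 3. The change was 0.71 ± 0.15 (1.64-fold, adjusted p = 0.034), again from 1 probe. The calls of Sfrp5 and Frzb were less firm than that of Dkk3: with 1 array left out, Sfrp5 passed in 2 of 8 fits (without control replicate 2 or hypertensive replicate 4) and Frzb in 1 of 8 (without control replicate 3), with adjusted p up to 0.083 and 0.090. Changes then lay between 0.56 and 0.73 for Sfrp5 and between 0.59 and 0.83 for Frzb. Median centring ended the Frzb call (0.62, adjusted p = 0.070).

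The promoters of the rising antagonists Sfrp5 and Frzb, and that of Axin2 as the classic beta-catenin target, are shown to give the sequence at their start sites. They are RefSeq windows (build GRCr8) of 250 bases before to 50 after the annotated start, written 5′ to 3′ on the gene's strand. Such windows were found for 34 of the 49 genes. Dkk3, which also rose, had no such window and is therefore not shown. Capitals mark the letters CTTTGA or CTTTGT, core forms of the TCF/LEF motif, or their reverse complements TCAAAG and ACAAAG.
Sfrp5 (GRCr8, chr1:250960463-250960762, minus strand): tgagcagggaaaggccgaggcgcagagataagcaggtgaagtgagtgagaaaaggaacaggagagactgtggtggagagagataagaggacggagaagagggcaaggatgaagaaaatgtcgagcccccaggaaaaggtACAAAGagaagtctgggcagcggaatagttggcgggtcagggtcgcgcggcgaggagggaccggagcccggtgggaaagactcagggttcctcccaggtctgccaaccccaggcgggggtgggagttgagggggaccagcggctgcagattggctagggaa
Frzb (GRCr8, chr3:85772047-85772346, minus strand): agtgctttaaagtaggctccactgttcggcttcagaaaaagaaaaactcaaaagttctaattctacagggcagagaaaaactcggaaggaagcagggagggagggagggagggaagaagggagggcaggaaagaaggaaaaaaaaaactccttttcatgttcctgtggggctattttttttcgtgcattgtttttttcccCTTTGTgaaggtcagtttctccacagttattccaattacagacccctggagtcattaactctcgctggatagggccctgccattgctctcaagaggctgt
Axin2 (GRCr8, chr10:94398535-94398834, plus strand): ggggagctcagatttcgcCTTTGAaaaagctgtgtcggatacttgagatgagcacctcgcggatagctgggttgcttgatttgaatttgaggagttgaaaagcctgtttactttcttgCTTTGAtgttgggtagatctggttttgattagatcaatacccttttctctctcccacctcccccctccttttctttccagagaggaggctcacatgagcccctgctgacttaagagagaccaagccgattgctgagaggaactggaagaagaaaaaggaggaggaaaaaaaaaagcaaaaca
The Sfrp5 window held ACAAAG once, starting 111 bases before the start site, and the Frzb window held CTTTGT once, 50 bases before it. Axin2 held CTTTGA at 232 and 132 bases before its start. On either strand, 26.5% of the 34 windows (9) and 31.4% of 33469 windows of all genes held at least 1 of these motifs, so a match is common. The windows of Wnt9b and Wnt4 held none of these letters.

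Among the other antagonists, Sfrp1, which binds Wnt ligands and is abundant in smooth muscle-rich tissue, read 3.86, 4.03, 3.77 and 3.96 in hypertensive arrays, against 3.43, 3.79, 3.57 and 3.84 in controls. The groups overlapped, and the difference of 0.25 ± 0.11 missed the threshold (adjusted p = 0.264), with 0.32 ± 0.13 on its second probe. Sfrp2 was 2.97, 3.11, 2.76 and 3.98 in hypertensive arrays, against 3.38, 3.58, 3.44 and 3.19 in controls. The array rich in fat cell markers, hypertensive replicate 4, had the highest Sfrp2 of all 8. Without that array the difference of -0.19 ± 0.24 became -0.45 (adjusted p = 0.072), and the part of fat cells in Sfrp2 was not tested. Sfrp4 spread widely in both groups, at 1.41 ± 0.45 in hypertensive and 1.37 ± 0.51 in control arrays (SD, n = 4 each), and differed by 0.03 ± 0.29. Dkk2, a Dickkopf protein that binds Lrp5 and Lrp6, was near background, with 2 of 4 hypertensive and 4 of 4 control arrays above it and a difference of -0.40 ± 0.25. Sost, known mainly from bone, was above background on 1 of 4 hypertensive and 3 of 4 control arrays and differed by -0.11 ± 0.33. Dkk1 and Dkk4, both of which bind Lrp6, were above background on no array.

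**Figure D2:**
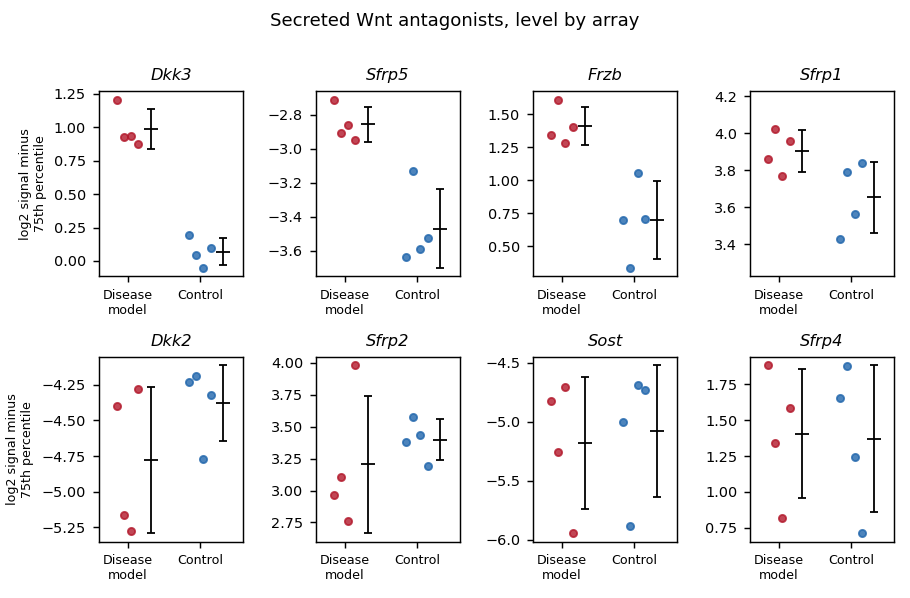
Level (log2 signal minus the array's 75th percentile, y axis) of the 8 tested antagonists, 1 panel per gene with its own axis, 1 point per array, and mean ± SD beside the points. The 4 hypertensive arrays lie above the 4 control arrays for Dkk3, Sfrp5 and Frzb, while the groups overlap for Sfrp1, Dkk2, Sfrp2, Sost and Sfrp4.

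Ligand genes showed no call. Of 19, 17 had a probe and 12 were tested, with 6 positive and 6 negative differences and a median of 0.03. An unadjusted p under 0.05 was found for 3 of the 12, beside 4975 of all 24552 tests. Wnt9b, known in mice from kidney tubule formation, stood at 1.24, 0.05, 0.20 and 0.71 in hypertensive replicates 1 to 4, against 1.599, 1.39, 1.58 and 1.59 in controls. All 4 hypertensive arrays were lower than all 4 controls and spread more among themselves (SD 0.54, against 0.10 in controls). The difference of -0.99 ± 0.24 fell just short of the threshold (adjusted p = 0.051), and without hypertensive replicate 1 it was -1.22 (adjusted p = 0.0074). A second, dimmer Wnt9b probe gave 0.20 ± 0.21 (adjusted p = 0.633), so the probes of this gene disagree.

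Wnt4, a ligand of kidney and gonad development in mice, read -3.78, -4.04, -4.21 and -3.34 in hypertensive arrays, against -3.04, -2.95, -3.39 and -2.68 in controls. Only hypertensive replicate 4 reached into the control range, above control replicate 3. The difference was -0.83 ± 0.21 (adjusted p = 0.063). It was -0.996 (adjusted p = 0.020) without hypertensive replicate 4 and -0.22 (adjusted p = 0.190) with normexp background correction, which shrinks dim probes. Wnt2b, which can act through beta-catenin, was -1.46, -1.21, -1.64 and -1.62 in hypertensive arrays, against -1.93, -2.38, -2.18 and -1.70 in controls. The groups were apart by a narrow gap, between hypertensive replicate 3 and control replicate 4, and the difference was 0.57 ± 0.16 (adjusted p = 0.088).

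Wnt5a, the best known ligand of beta-catenin-independent signalling, was 1.104, 1.21, 1.15 and 1.196 in hypertensive arrays, against 1.52, 1.33, 1.34 and 0.99 in controls. The hypertensive values fell inside the control range, with a difference of -0.13 ± 0.11 and a 95% interval of -0.39 to 0.13. Its second probe gave -0.15 ± 0.13. Wnt5b, its close relative, differed by -0.27 ± 0.15, from -3.07, -3.05, -3.27 and -2.87 in hypertensive and -2.85, -2.38, -2.92 and -3.04 in control arrays. Wnt11, which takes part in heart development, was -0.49, -0.04, -0.21 and 0.14 in hypertensive arrays, against -0.76, -0.38, -0.40 and -0.28 in controls. Its difference of 0.31 ± 0.15 did not pass (adjusted p = 0.310).

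Wnt1, a ligand needed for midbrain formation in mice, had levels of -1.85, -2.11, -1.82 and -2.08 in hypertensive arrays, against -2.34, -1.88, -2.34 and -2.12 in controls, a difference of 0.20 ± 0.13. The other Wnt1 probe, for the same transcript, was above background on no array, so the probes of this gene disagree on its level. Wnt10b, which restrains fat cell formation in mice, varied within both groups, at -2.48, -1.43, -1.69 and -1.22 in hypertensive and -2.57, -2.005, -1.97 and -1.34 in control arrays, with a difference of 0.27 ± 0.32. Wnt9a, Wnt7a, Wnt16 and Wnt6 differed by -0.05 ± 0.22, 0.09 ± 0.25, 0.08 ± 0.29 and -0.02 ± 0.27. Their 95% intervals reached at most 0.73 above and 0.64 below 0, so changes of this size are not excluded by 4 arrays a group. Wnt7a also had another probe for the same transcript that was above background on no array.

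Signal from the remaining ligand probes was at or near background. Wnt3 was above background on 2 of 4 hypertensive and 0 of 4 control arrays, at -6.15, -5.29, -4.92 and -5.31 in hypertensive and -5.92, -5.88, -7.42 and -6.07 in control arrays, and was not tested. Wnt7b, Wnt8a, Wnt8b and Wnt10a were above background on no array. Wnt2 and Wnt3a had no matched probe and were not analysed here.

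**Figure D3:**
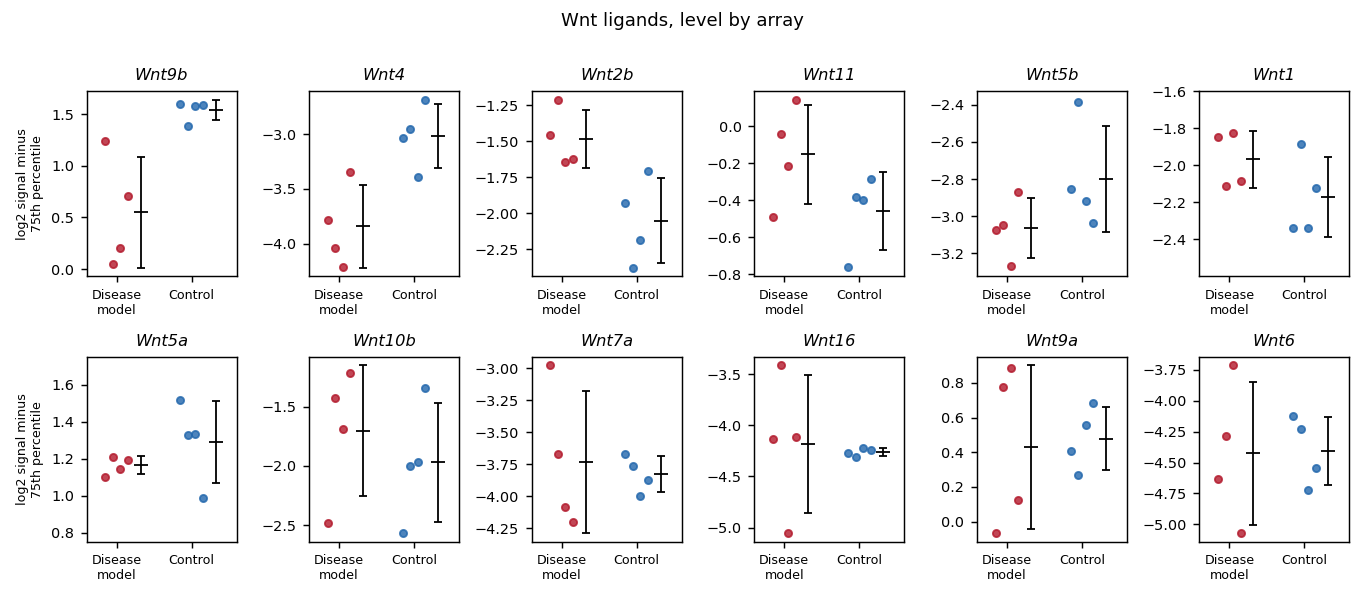
Level (log2 signal minus the array's 75th percentile, y axis) of the 12 tested Wnt ligands, 1 panel per gene with its own axis, 1 point per array, and mean ± SD beside the points. The groups are apart for Wnt9b (lower in hypertensive arrays) and Wnt2b (higher), and hypertensive replicate 4 alone reaches the control range for Wnt4.

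Receptor genes gave small differences. All 12 had a probe and 10 were tested, none past the threshold or at an unadjusted p under 0.05, with a median of -0.01. The Frizzled receptor Fzd4, which also binds the retinal vessel factor Norrin, was 3.19, 3.64, 3.51 and 3.36 in hypertensive arrays, against 3.29, 3.42, 3.47 and 3.36 in controls. Its difference was 0.04 ± 0.11, with -0.02 ± 0.14 on a second probe. Fzd1 was 3.67, 3.50, 3.76 and 3.44 in hypertensive arrays, against 3.68, 3.34, 3.73 and 3.68 in controls, a difference of -0.02 ± 0.12. Fzd6, a receptor of planar cell polarity, differed by -0.01 ± 0.10, and its 95% interval of -0.24 to 0.23 was among the narrower ones. Another Fzd6 probe, for a different transcript, was above background on no array.

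The co-receptors were close to equal as well. Lrp6 read 1.34, 1.31, 1.36 and 1.24 in hypertensive arrays, against 1.65, 1.42, 1.19 and 1.37 in controls. The hypertensive arrays lay within the control range, with a difference of -0.10 ± 0.10 and -0.07 ± 0.12 on a second probe. Lrp5 was 1.88, 1.65, 2.01 and 1.33 in hypertensive arrays, against 1.86, 1.82, 1.77 and 1.81 in controls, and hypertensive replicate 4 was the lowest of the 8. Its difference of -0.10 ± 0.14 became 0.03 without that array.

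Fzd3, a receptor of axon guidance in mice, had the highest positive difference of the receptors, with levels of -3.71, -3.35, -3.17 and -3.62 in hypertensive arrays, against -3.92, -3.61, -3.66 and -3.75 in controls. The groups overlapped (0.28 ± 0.13, adjusted p = 0.288). Fzd7, a receptor of the beta-catenin branch, was -3.55, -3.63, -3.57 and -3.87 in hypertensive and -4.14, -3.72, -3.93 and -3.63 in control arrays (0.20 ± 0.13). Fzd10 was 0.25, 0.20, 0.10 and 0.31 in hypertensive arrays, against 0.16, 0.22, 0.11 and 0.12 in controls (0.06 ± 0.08). Another Fzd10 probe for the same transcript was above background on no array. Fzd2 differed by -0.07 ± 0.12.

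Fzd8 varied between animals more than between groups. Its brightest probe gave 0.91, 0.29, 1.06 and 0.26 in hypertensive replicates 1 to 4, against 1.18, 0.30, 1.13 and 0.97 in control replicates 1 to 4. Hypertensive replicates 2 and 4 and control replicate 2 were the 3 low arrays. Both other Fzd8 probes were lowest on these 3 arrays too, at -0.93, -0.71 and -1.07 on one and -0.52, -0.45 and -0.27 on the other. The group difference was -0.27 ± 0.25 (95% interval -0.83 to 0.30). Fzd5 and Fzd9 were above background on no array.

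**Figure D4:**
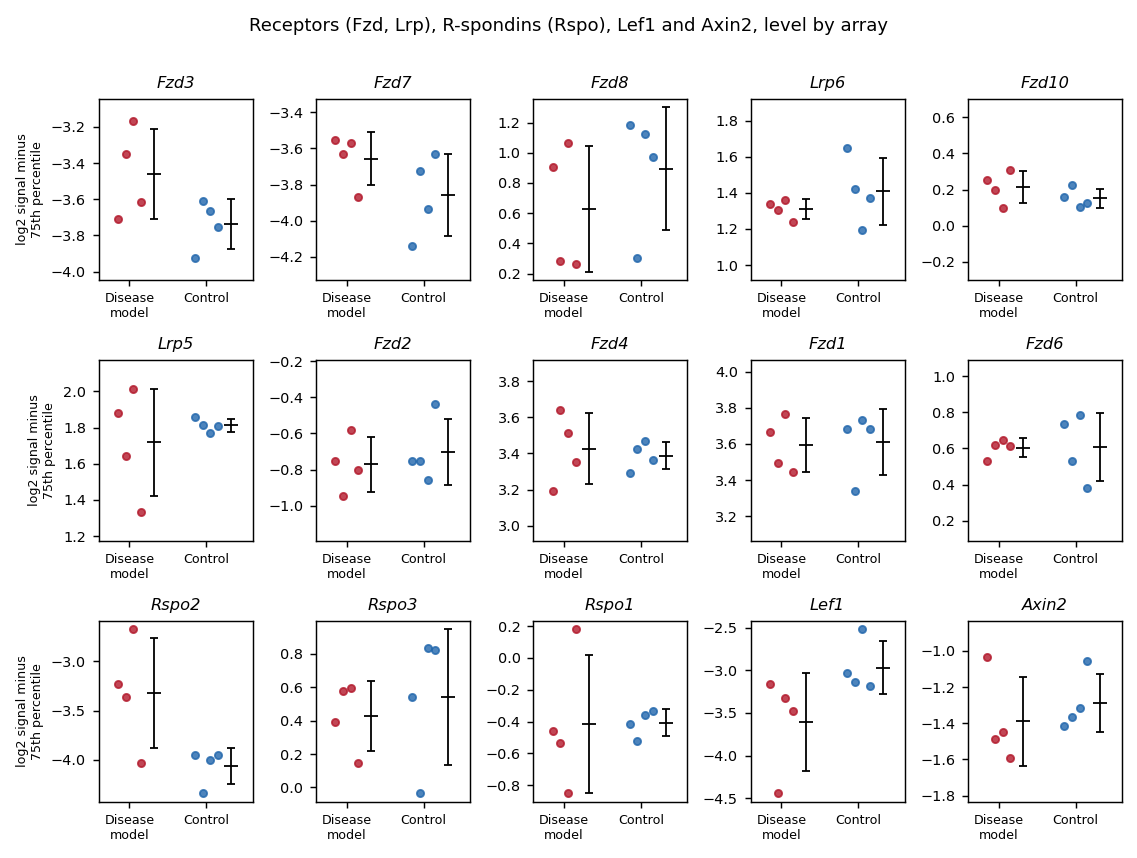
Level (log2 signal minus the array's 75th percentile, y axis) of the 10 tested receptors, 3 R-spondins, Lef1 and Axin2, 1 panel per gene with its own axis, 1 point per array, and mean ± SD beside the points. The groups overlap in every panel, and Fzd8 is low on hypertensive replicates 2 and 4 and control replicate 2.

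Of the 4 R-spondins, 3 were tested and none passed. Rspo2 read -3.23, -3.37, -2.68 and -4.03 in hypertensive arrays, against -3.95, -4.34, -4.004 and -3.95 in controls. Hypertensive replicates 1 to 3 lay above every control, while replicate 4 lay among them. The difference was 0.74 ± 0.25 (adjusted p = 0.143), 0.97 (adjusted p = 0.023) without hypertensive replicate 4 and 0.37 (adjusted p = 0.041) with normexp background correction. Other Rspo2 probes were each above background on 1 of 4 hypertensive and 0 of 4 control arrays and were not kept. Rspo3, needed for vessel formation in mouse embryos, was 0.39, 0.58, 0.59 and 0.15 in hypertensive and 0.54, -0.04, 0.83 and 0.82 in control arrays, a difference of -0.11 ± 0.20. Rspo1 differed by -0.01 ± 0.19, with a wider spread in the hypertensive group (SD 0.43, against 0.08 in controls). Rspo4 was above background on 1 of 4 hypertensive and 0 of 4 control arrays and was not tested.

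Axin2, a negative regulator that beta-catenin itself switches on and hence a common readout of the pathway, was -1.03, -1.49, -1.45 and -1.59 in hypertensive arrays, against -1.41, -1.37, -1.31 and -1.05 in controls. The groups overlapped, and the difference of -0.10 ± 0.14 had a 95% interval of -0.41 to 0.21. Lef1, a nuclear partner of beta-catenin that T cells also express, read -3.17, -4.44, -3.33 and -3.48 in hypertensive arrays, against -3.03, -3.14, -2.52 and -3.18 in controls. Hypertensive replicate 2 was far below the rest, and the difference of -0.63 ± 0.28 (adjusted p = 0.244) was -0.35 without it and -0.15 with normexp background correction. T cell markers were lower on hypertensive replicates 1 to 3 than on the other 5 arrays. Over 13 tested T cell markers the mean was -1.59, -1.60, -1.82 and -0.87 in hypertensive replicates 1 to 4, against -1.10, -0.95, -0.90 and -1.17 in controls, with none past the threshold, 11 of 13 negative and Trat1 above background on no array. Their part in the Lef1 values was not tested. Tcf7 and the antagonist gene Wif1 had no matched probe and were not analysed here.

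Genes elsewhere in the pathway were counted from 7 lists with 153 genes in all besides those above, of which 117 were tested. Of these, 4 rose and 2 fell (5.13%, against 4.53% of all tests), and the median change was 0.03. Among the 4 that rose, Sp5 and Cxxc4 were above background on 4 hypertensive but 1 of 4 control arrays. They therefore entered the tests only through the group where they were higher. With a filter on all 8 arrays, 2 genes of these lists rose and 2 fell. Beta-catenin target genes held 3 of the 6 calls, with 2 that rose and 1 that fell among 21 tested. At an unadjusted p under 0.05 in limma were 9 of these 21, beside 4975 of all 24552 tests. In 8 of the 21 (38.1%, against 13.6% of all tests) the groups did not overlap. Changes of this list were positive for 11 genes and negative for 10, and the list was not tested as a set. Jun, a subunit of the AP-1 factor that many stimuli switch on within minutes, fell: it read 5.35, 5.60, 5.43 and 5.07 in hypertensive arrays, against 6.54, 6.35, 7.09 and 6.26 in controls (-1.19 ± 0.19, adjusted p = 0.0095). The groups were far apart, and a second Jun probe gave -0.64 ± 0.18 (adjusted p = 0.081).

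Sp5, a transcription factor gene that beta-catenin activates directly, rose, with -3.46, -3.28, -3.72 and -3.33 in hypertensive arrays, against -6.42, -5.11, -4.24 and -5.17 in controls. Of the controls, 1 of 4 was above background, and the change of 1.79 ± 0.38 (adjusted p = 0.037) was 0.53 with normexp background correction (adjusted p = 0.0081). The call was lost with quantile normalization and without any 1 of 6 arrays. Dim probes left in (adjusted p = 0.078) and the replicate number as a block (adjusted p = 0.084) also ended it. Cd44, the hyaluronan receptor, rose by 0.34 ± 0.08 (adjusted p = 0.0496) on its brightest probe, while its other probes gave 0.17 ± 0.11 and -0.11 ± 0.10. The call was lost without any 1 array and under several other settings, quantile normalization and median centring among them. Myc, the growth-promoting factor and a well known target, differed by -0.57 ± 0.16 (adjusted p = 0.085).

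Wls, the carrier that brings Wnt proteins to the cell surface for secretion, fell. Its level was 3.08, 2.86, 2.85 and 3.05 in hypertensive arrays, against 3.43, 3.42, 3.44 and 3.38 in controls. Control arrays were tightly grouped and lay above all hypertensive arrays (-0.46 ± 0.08, adjusted p = 0.017), with -0.37 ± 0.09 on a second probe (adjusted p = 0.053). Wls was the 1 gene of 7 tested in the secretion list to pass, and its call was kept in 5 of 8 fits with 1 array left out. Its call was lost with dim probes left in (adjusted p = 0.063) and with the replicate number as a block (adjusted p = 0.069). Dkkl1, a gene related to Dkk3, rose by 0.86 ± 0.19 (adjusted p = 0.041; 0.50 with normexp background correction), the 1 call among 8 other extracellular modulators. Its levels were -1.97, -1.62, -2.10 and -2.09 in hypertensive arrays, against -3.11, -2.84, -2.27 and -2.995 in controls. The Dkkl1 call was lost in 6 of the 8 fits with 1 array left out and with quantile normalization or median centring. It was also lost with dim probes left in (adjusted p = 0.093) and with the replicate number as a block (adjusted p = 0.095).

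Cxxc4, which binds Dishevelled and dampens the signal, was the 1 gene past the threshold among 26 destruction complex and transducer genes. It read -2.89, -4.08, -4.28 and -3.43 in hypertensive arrays, against -5.61, -5.03, -6.68 and -4.93 in controls, where 1 of 4 arrays was above background (1.89 ± 0.43, adjusted p = 0.043). With normexp background correction the change was 0.59 (adjusted p = 0.013). With 1 array left out it passed in 1 of 8 fits, that without control replicate 4. Array weights (adjusted p = 0.055) and dim probes left in (adjusted p = 0.092) also ended the call. Ctnnb1, the beta-catenin gene itself, was 0.35, 0.19, 0.38 and 0.42 in hypertensive arrays, against 0.66, 0.63, 0.64 and 0.47 in controls. The groups did not overlap, but the difference of -0.27 ± 0.09 was not past the threshold (adjusted p = 0.123).

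None passed among 21 nuclear partners, 26 planar polarity and non-canonical genes or 11 co-receptor regulators. Among nuclear partners, Tcf7l1 differed by -0.31 ± 0.11. The 2 smallest p among planar polarity and non-canonical genes belonged to Camk2b (0.61 ± 0.15) and Plcb1 (0.44 ± 0.11). Camk2b was dim, above background on 4 hypertensive but 1 of 4 control arrays. It therefore entered the tests only through the group where it was higher. Among co-receptor regulators the 2 smallest p belonged to Lrp4 (-0.19 ± 0.09) and Adgra2 (-0.19 ± 0.12). At an unadjusted p under 0.05, limma gave 3 of 21 nuclear partners, 5 of 26 planar polarity and non-canonical genes and 0 of 11 co-receptor regulators. Over all tests it gave 4975 of 24552, so these lists showed no excess.

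Markers of other cell types are described list by list, without a test of any list. Over all 24552 tests, 14158 changes were positive and 4975 had an unadjusted p under 0.05. Mast cell markers had a mean level of -0.63 to 0.13 in hypertensive and -1.26 to -0.75 in control arrays, without overlap, with 8 of 9 positive, 7 of 9 at an unadjusted p under 0.05, 1 past the threshold and a median change of 0.75. Nerve and Schwann cell markers had a mean of -0.74 to -0.55 in hypertensive and -1.57 to -1.16 in control arrays, also without overlap, but 3 of 9 were negative, the median change was 0.22 and 1 passed the threshold. Dbh, Nefl, Nefm and Snap25 were above background on no array. Macrophage markers were at 1.32 to 1.79 in hypertensive and 1.66 to 1.83 in control arrays, with 8 of 10 negative, 5 at an unadjusted p under 0.05 and 1 past the threshold. Fibroblast and adventitia markers, of a cell type known to make Sfrp and Dkk proteins, had a mean level of 3.95 to 4.46 in hypertensive and 4.32 to 4.74 in control arrays, with 9 of 10 tested markers negative and none past the threshold. Skeletal muscle markers were at -2.22 to -1.65 in hypertensive and -2.56 to -2.18 in control arrays, with 5 of 7 positive and 1 past the threshold. Endothelial markers were at 2.98 to 3.24 in hypertensive and 3.07 to 3.26 in control arrays, with 5 of 10 positive and none past the threshold. The part of these cells in the values of Dkk3, Sfrp5 and Frzb was not tested.

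**Figure D5:**
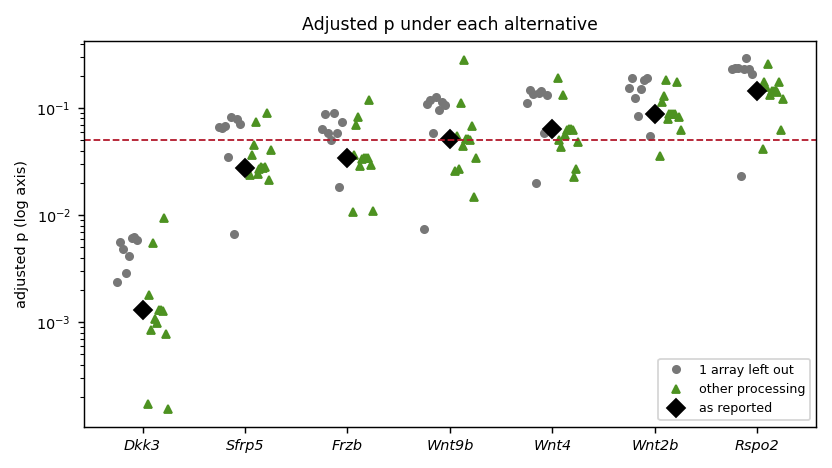
Adjusted p (y axis, log scale) of 7 genes as reported (diamond), with 1 array left out (circles) and under other processing (triangles), with a dashed line at 0.05. All points of Dkk3 lie below the line, those of Sfrp5 and Frzb lie on both sides, and those of Wnt9b, Wnt4, Wnt2b and Rspo2 lie mostly above it.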

How the data were processed

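RNA from vessels of 4 hypertensive and 4 control male rats was measured on 1 Agilent 1-colour array each, and group and replicate came from the sample titles. Per the file headers, the spot intensity values were background-subtracted and detrended by Agilent Feature Extraction 10.7.1.1 (12.1.1.1 per the submitters' processing notes). The authors' deposited value table holds a ratio, the processed intensity over a constant near each array's 75th percentile (column medians 0.090 to 0.101 in hypertensive and 0.086 to 0.092 in control arrays), and served as an alternative. It is on a linear scale, not centred on genes. Marks of 0 or 1 per spot, another kind of value, are also deposited.

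Gene spots (58717 per array, none saturated) without outlier marks were averaged per probe as log2 of the processed signal, and the array's 75th percentile (signal 357 to 478 in hypertensive and 405 to 503 in control arrays) was subtracted. A probe entered if 3 of 4 arrays of either group were well above background (58.7% to 63.2% of probes per hypertensive and 59.5% to 64.1% per control array), which kept 27822 of 45598. Names came from accessions in an NCBI gene table (GRCr8) and covered 46.6% of probes. The brightest kept probe stood for a gene, giving 24552 tests (11965 named genes and 12587 unnamed probes). Groups were compared by limma 3.58.1 in R 4.3.3 (lmFit, eBayes, group as the only term) with Benjamini-Hochberg adjustment over all tests. The number of arrays limits the precision, and limma was tested on simulated data.

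The genes and lists were chosen with earlier results of these data known, so no p is adjusted over a list and no list is tested. The rule was to give each array's values for members past the threshold or at an unadjusted p under 0.05 and for further members in order of p. From each pathway list it named up to 4 genes past the threshold, or else the 2 with the smallest p. Alternatives covered background correction, normalization, centring, filter, probe choice, outlier spots, array weights, variance model, the value table, a replicate block and each array left out. Normexp used median spot signals, because the files hold no mean signals, and all arrays shared 1 slide and 1 scan, so no slide or scan block was run. Genes above background in 1 group alone were also to be named. Ctnnb1, Myc and the array values of Fzd1 and Fzd4 are given outside the rule, chosen after their values were seen. Dkk2 and Fzd2 came within the order of p but are given without each array's values. One gene that the rule would name is not reported here.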

Additional observations from a re-analysis of the deposited data

Results flagged for a closer look

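A gap test for a single array far from the other 3 of its group (its gap to the nearest over the group's range, Dixon's test) was run on 82 groups of 4 arrays, and 3 were marked, where chance marks about 1 in 20. All 3 were control replicate 2, lower than the other controls: 1.39 for Wnt9b against 1.58 to 1.599, -4.34 for Rspo2 against -4.004 to -3.95, and 3.34 for Fzd1 against 3.68 to 3.73. Without that array the differences were -1.04 for Wnt9b (adjusted p = 0.097) and 0.64 for Rspo2 (adjusted p = 0.292), both still short of the threshold.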

How the results depend on the processing

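Dkk3 passed the threshold under all 20 alternatives, and none of the 3 genes past it changed sign. Against 3 members higher and 0 lower (8 at an unadjusted p under 0.05), normexp background correction gave 5 and 1 (Rspo2, Wnt2b and Wnt9b added), leaving dim probes in gave 1 higher, median centring 2 lower (Wnt4, Wnt9b) with Frzb lost, a filter on all 8 arrays 1 lower (Wnt9b), and array weights and a variance trend with robust fit 2 lower each (Wnt4, Wnt9b). With 1 array left out, 1 to 3 members were higher and 0 to 1 lower. The replicate number equals the slide column on all 8 arrays, so the replicate block is also a block of slide columns. With the replicate block there was 1 higher and 1 lower member: Sfrp5 and Frzb were lost (adjusted p = 0.090 and 0.118) and Wnt4 gained. Deviations of same-numbered arrays correlated at 0.206, 0.115, -0.0036 and -0.148, and only numbers 1 and 2 correlated best with their own. The labels give no pairing, and so few values cannot tell whether the numbers pair the rats. Over all tests, 641 higher became 1201 with normexp, 422 with median centring, 375 with dim probes left in, 381 with the replicate block and 379 to 853 with 1 array left out; 470 lower became 266 with dim probes left in, 294 with the block and 247 to 620 with 1 array left out, highest in both directions without hypertensive replicate 4. The median over all tests was 0.04 as reported, 0.0015 with quantile normalization, -0.045 with median centring and 0.115 with dim probes left in. Other pathway genes higher (4) numbered 1 with quantile normalization, 2 with median centring, 0 with dim probes left in, 2 with the filter on all 8 arrays, 1 with the block and 0 to 3 with 1 array left out; lower (2) numbered 8 with normexp, 1 with dim probes left in, 1 with the block, 4 with array weights, 4 with the variance trend and 1 to 4 with 1 array left out.

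Of 697 member and alternative pairs, 620 kept direction and side, 18 fell below the threshold, 14 passed it and 45 changed sign, these in 14 members that never passed as reported. Normexp turned Dkk2 to 0.045, Fzd4 to -0.031, Sost to 0.085, Wnt6 to 0.18 and Rspo1 to 0.025. Median centring turned Fzd10 to -0.026, Fzd4 to -0.048, Wnt16 to -0.0040 and Sfrp4 to -0.051, and quantile normalization turned Wnt16 to -0.038. Array weights turned Wnt9a to 0.072, Wnt6 to 0.13 and Fzd6 to 0.017. Testing each kept probe, chosen after seeing the data, gave -0.022 for Fzd4 and 0.20 for Wnt9b on the other probe. With 1 array left out, values ran from -0.19 to 0.032 (Lrp5), -0.13 to 0.018 (Fzd2), -0.16 to 0.25 (Wnt7a), -0.034 to 0.12 (Fzd4), -0.38 to 0.15 (Sost), -0.17 to 0.37 (Wnt16), -0.20 to 0.12 (Wnt9a), -0.11 to 0.034 (Fzd1), -0.19 to 0.23 (Sfrp4), -0.26 to 0.19 (Wnt6), -0.082 to 0.053 (Fzd6) and -0.21 to 0.14 (Rspo1). The causes were not tested. A slide or scan block was not run, since all arrays shared 1 slide and scan. Dim probes near background limit Sfrp5, Wnt4, Rspo2, Dkk2, Sost, Sp5, Cxxc4 and Camk2b.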
